A study of Drosophila melanogaster with 46 samples.

Results

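The 49 ATAC-seq regions described here lie wholly within 2L:12560000-12700000 of Drosophila melanogaster (build dm3), the locus of the paralogous genes nub and pdm2. They were chosen by position alone from a table of 30774 regions, and 1 further region that crosses the end of the locus was not counted. ATAC-seq uses the Tn5 transposase to cut and tag open DNA, so the count of reads in a region measures its accessibility. The series asked for loci whose accessibility differs between inbred strains. The libraries came from eye-antennal imaginal discs, the larval epithelia that form the adult eye and antenna, dissected by hand from wandering larvae of the third instar kept at 25 degrees on normal food. The strains are 23 inbred DGRP lines (Drosophila Genetic Reference Panel), made from a wild population, with no transgene or treatment named in the labels. Of the 31 libraries, 15 carry IR in their title and 16 do not, and the labels do not say what IR stands for. In 8 lines there is 1 library with and 1 without IR, and the other 15 lines have 1 library each. No label states that both libraries of a line were dissected separately. The p-values therefore rest on a spread between libraries that may be only technical. The other 15 samples of the series (reporter insertions, sorted cells and ChIPmentation) are not analysed here.

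nub and pdm2 encode POU-homeodomain transcription factors. nub is needed for the growth of the wing and for the pattern of its hinge, and it is active in the joints of the developing leg. In embryonic neuroblasts both genes act in the temporal sequence of factors that sets which neurons are born when. Genes of this kind are usually controlled by many separate enhancers spread over long introns and intergenic DNA, which are seen as accessible regions whether or not the gene is transcribed.

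In the RefSeq Release 6 gene order nub (Dmel_CG34395) comes first, followed by Ref2, pdm2 (Dmel_CG12287), Nepl7 and CCT4, counting protein-coding genes by start. That table belongs to another assembly, so no region could be placed in a promoter, exon, intron or UTR, or given to nub rather than pdm2. The labelled tissue was not checked against marker genes for the same reason. The regions were numbered 1 to 49 along the locus.

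Library totals ran from 1110755 to 12758783 counts with a median of 6283136, and the locus received 1416 to 16566 counts per library. All 49 regions passed the filter on low counts, although 17 had a mean count under 50. Levels are given as CPM, counts scaled to a common library total with TMM factors.

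The locus was densely set with accessible regions of ordinary strength. It held 35.0 regions per 100 kb, against 26.1 per 100 kb over arm 2L. Region lengths ran from 206 to 1144 bp around a median of 456 bp, which was also the median of the whole table. Together they covered 17.6% of the 140 kb locus. Their mean level ran from 9.04 to 153 CPM per kb with a median of 29.1, against a median of 30.3 CPM per kb over all regions. Of the 49 regions, 23 (46.9%) lay above the table's median of mean log2 CPM, which is not scaled to length. By CPM per kb, 5 lay in the top decile of the table.

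The signal was concentrated in a few regions. The 5 with the highest CPM held 47.5% of the mean CPM of the locus. Per length, the highest was region 36 (2L:12655637-12656174, 153 CPM per kb). Its level was 55.1 CPM in the lowest library, 82.9 CPM at the median and 116 CPM in the highest. The next 4 were region 15 (2L:12601597-12602271) at 141 CPM per kb, region 21 (2L:12617720-12618824) at 132, region 13 (2L:12597518-12598632) at 119.6 and region 10 (2L:12586768-12587840) at 111 CPM per kb. Region 36 stood apart, and the other 4 lay together in the nearer part of the locus.

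**Figure D1:**
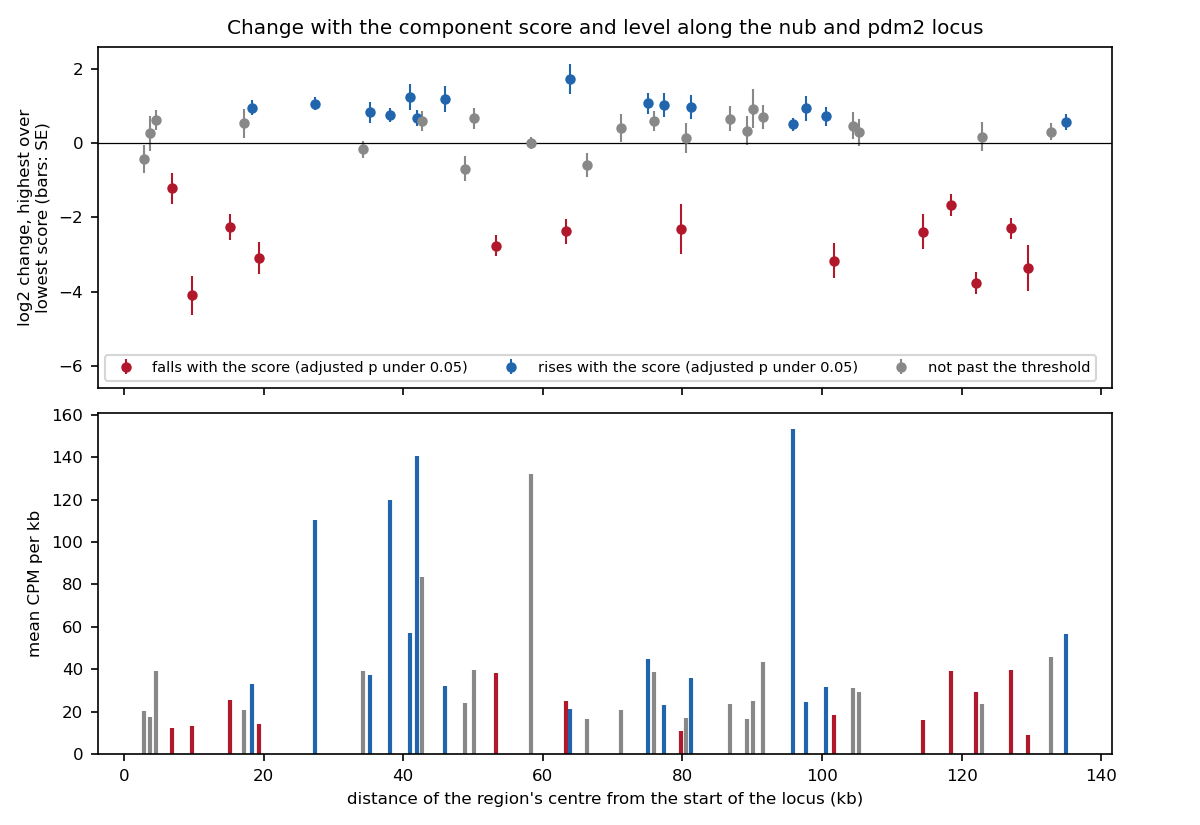
Each of the 49 regions at the distance of its centre from the start of the locus (kb), with the log2 change from the lowest to the highest component score above (points, with bars for the SE) and its mean level in CPM per kb below. The 13 regions that fall with the score (red) are scattered among the 15 that rise (blue), and the 5 highest bars belong to 4 rising regions and to region 21, which is near 0 in the upper panel.

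The libraries differed along 1 main axis, and the locus was split along it. A score for each library was taken as the first principal component of log2 CPM over 12521 regions above the median level, with arm 2L left out so that no region of the locus entered it. The component held 40.3% of the variance and its sign is arbitrary. Scores ran from -62.9 in the library of DGRP_29651 to 34.3 in the library of DGRP_25208 with IR. They ran from -32.9 to 34.3 with IR and from -62.9 to 30.02 without IR, so that the groups overlapped. In 4 of the 8 lines the library with IR had the higher score, by a wide margin in each. Those scores, with and without IR, were 34.3 and -47.8 in DGRP_25208 and 23.4 and -48.0 in DGRP_28265. They were 27.1 and -41.7 in DGRP_29652 and 21.6 and -58.7 in DGRP_55031. Of the other lines only DGRP_28260 had a wide gap, at -32.6 and 28.5. Score and IR were thus not balanced in these lines. Over the 31 libraries the score had a Pearson r of 0.187 with the log2 library total and of 0.053 with the ratio of X to autosomal counts. What the score stands for was not tested. In a whole disc, fewer nuclei with an open region and less accessibility per nucleus cannot be told apart.

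With terms for line and IR, 13 of the 49 regions fell with the score (26.5%, against a background of 23.1% of all regions tested) and 15 rose (30.6%, against 22.8%), by edgeR's quasi-likelihood test with Benjamini-Hochberg adjusted p under 0.05. Both shares lay near the background, so the counts themselves say nothing particular about the locus. Falls of 4-fold or more were seen in 11 regions (22.4%, against 13.3% of all regions), and rises of 2-fold or more in 6 (12.2%, against 7.44%). The falls ran from 1.21 to 4.10 on the log2 scale, counted from the lowest to the highest score, and the rises from 0.51 to 1.74. The falling regions thus had the steeper slopes. With a term for line, a slope rests only on the 8 lines with 2 libraries. DGRP_29651, which set the lowest score, has no second library and does not enter it. The changes are therefore scaled to a wider range of scores than any of those lines spanned.

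The split depends on the scaling for the rising regions. With library totals in place of TMM the median change of all regions shifted by 0.20, and 13 regions fell (background 25.1%) and 8 rose (background 12.8%). All 15 rising regions kept a positive slope there, and in the TMM fit they lay 0.30 to 1.53 above the median change of all regions. With no term for the line, which drops the replicate block, 13 fell (background 26.2%) and 26 rose (background 34.8%).

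Region 5 (2L:12569589-12569894) had the steepest fall. Its level was 0.326 CPM in the library with the highest score and 11.5 CPM in that with the lowest. The full range was 0 CPM in the library of DGRP_25185 to 15.4 CPM in the library of DGRP_25208 without IR, with a median of 2.598 CPM. The 0 counts there allow up to 0.797 CPM (3 counts, counting error only). The change was -4.10 ± 0.53 (log2, SE), with an adjusted p of 3.44e-06 by edgeR.

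Region 44 (2L:12681539-12682497) fell nearly as steeply and is a stronger region, so its values are better counted. It had 6.86 CPM in the lowest library (DGRP_28243), 17.2 CPM at the median and 93.3 CPM in the highest (DGRP_25208 without IR). Its change was -3.77 ± 0.29 (log2, SE; edgeR adjusted p 4.83e-09). The same line supplied a high and a low value: with IR the DGRP_25208 library had 10.1 CPM, and without IR 93.3 CPM. DGRP_28260 had the reverse, with 68.9 CPM with IR and 7.02 CPM without. The higher-scoring library of a line was the lower one in 8 of 8 lines at region 44. These differences of up to 9.81-fold therefore occurred between libraries of 1 inbred line, and they did not keep to 1 side of the IR label.

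Region 47 (2L:12689426-12689681) was the third of the steepest falls and the weakest region of the locus. It had 0.281 CPM in its lowest library, 1.4997 CPM at the median and 11.4 CPM in DGRP_29651, with a change of -3.36 ± 0.62 (log2, SE; edgeR adjusted p 1.93e-04). Region 20 (2L:12612961-12613504) tracked the score most closely, with a Pearson r of -0.96 over the 31 libraries. It had 6.85 CPM in its lowest library, 12.9 CPM at the median and 65.8 CPM in its highest (DGRP_55031 without IR), and its change was -2.77 ± 0.29 (edgeR adjusted p 2.04e-07). Region 46 (2L:12686720-12687290) ran from 8.40 CPM through a median of 19.4 CPM to 58.2 CPM, and its change was -2.29 ± 0.28 (edgeR adjusted p 2.34e-06). In all 5 of these regions DGRP_29651 and the DGRP_55031 library without IR, which had the 2 lowest scores, were among the 4 highest libraries.

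**Figure D2:**
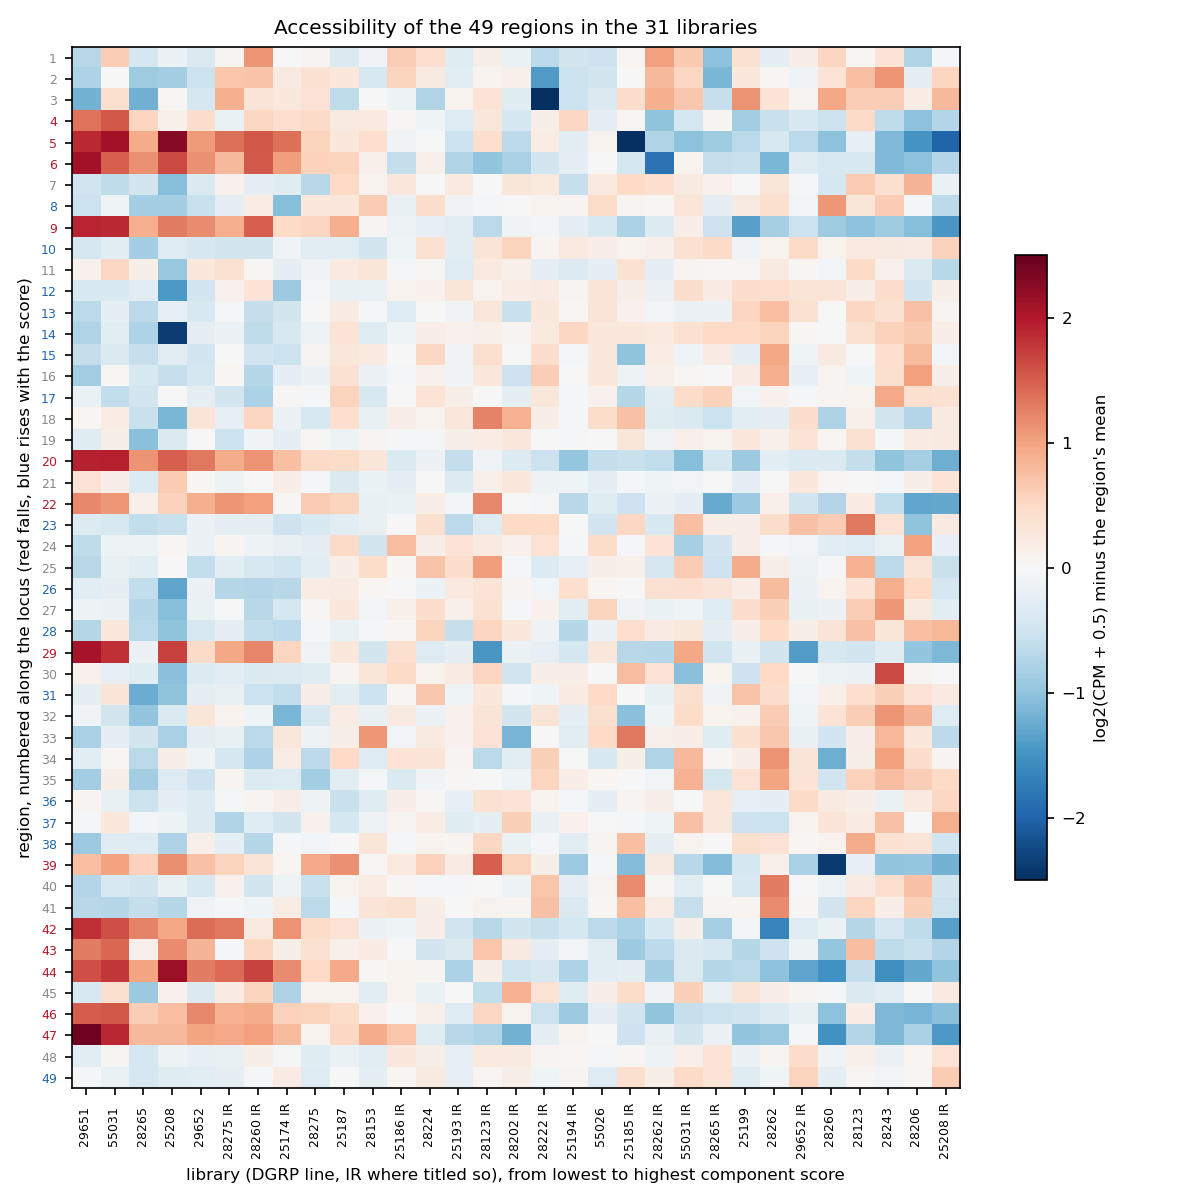
log2(CPM + 0.5) of the 49 regions (rows, in order along the locus, numbers in red where they fall and in blue where they rise with the score) in the 31 libraries (columns, from lowest to highest score), minus the mean of each region. The 13 falling rows turn from red on the left to blue on the right and are interleaved with paler rows, in 8 runs of which the longest holds 3 neighbouring regions.

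The rising regions included 4 of the 5 strongest. Region 10 rose by 1.07 ± 0.17 (log2, SE; edgeR adjusted p 4.47e-05). It ran from 64.0 CPM in the DGRP_28265 library without IR, through a median of 122 CPM, to 172 CPM in the DGRP_25208 library with IR. The steepest rise was that of region 23 (2L:12623712-12623976). Its change was 1.74 ± 0.41 (edgeR adjusted p 0.00193). It had 2.38 CPM in its lowest library (DGRP_28206, score 30.02) and 4.67 CPM at the median. Its highest was 13.9 CPM (DGRP_28123 without IR, score 29.0). Both ends of this range had high scores, so the range does not show the rise. The level was 4.02 CPM in the library with the lowest score and 6.20 CPM in that with the highest.

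Region 14 (2L:12600887-12601092), the shortest of the locus, had 1.71, 11.97 and 17.6 CPM in its lowest, median and highest libraries, with a change of 1.25 ± 0.34 (edgeR adjusted p 0.00518). Region 17 (2L:12605880-12606103) had 3.78, 6.84 and 13.9 CPM, with a change of 1.20 ± 0.35 (edgeR adjusted p 0.00779). Region 21, the third strongest per length, stayed level: it ran only from 112 to 224 CPM with a median of 142 CPM, and its change was 0.0014 ± 0.16. The 2 libraries of a line also lay closest together at region 21, with a within-line SD of 0.147 (log2), against a median of 0.480 over the 49 regions and 0.443 over all regions.

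**Figure D3:**
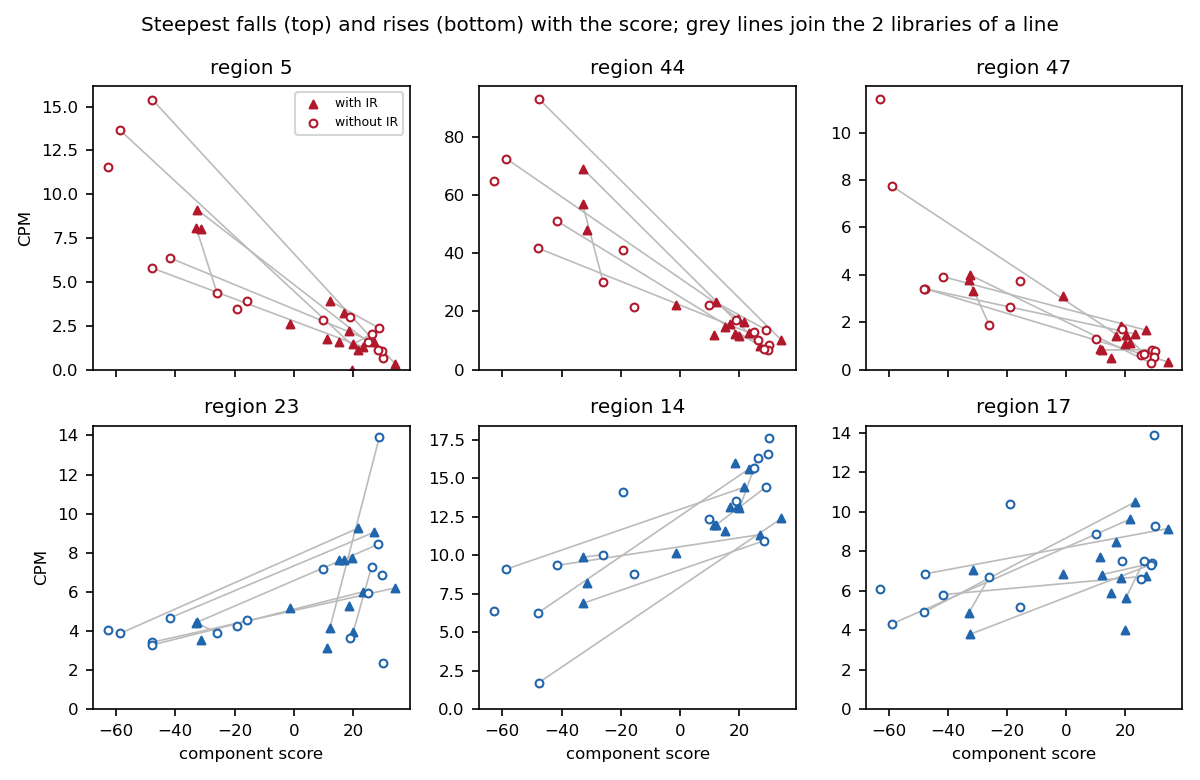
CPM (vertical axes, from 0) against the component score for the 3 steepest falls (top: regions 5, 44 and 47) and the 3 steepest rises (bottom: regions 23, 14 and 17), with triangles for libraries with IR, circles for libraries without it and grey lines between the 2 libraries of a line. The top lines slope down in 7 or 8 of the 8 lines, and the bottom lines slope up in 7 or 8 of them.

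The direction within lines was shared by most of the regions called. Among the 13 falling regions, 9 were lower in the higher-scoring library in at least 7 of 8 lines. Among the 15 rising regions, 11 were higher there in at least 7 of 8. The fewest lines were seen for regions 4 and 43 among the falling, with 5 of 8 each, and for region 49 among the rising, with 4 of 8. The 2 libraries lay close in score in DGRP_28262 (20.1 with IR, 26.3 without), DGRP_28275 (-32.9 and -25.9) and DGRP_28123 (12.2 and 29.0). These lines count here as much as those with wide gaps. As the slope fit used the same libraries, the counts of lines describe it and are no second test.

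The 13 falling regions were weaker than the 15 rising ones, with a median of 18.2 CPM per kb against 37.3 CPM per kb, and held 12.1% of the CPM of the locus against 49.998%. As a fold of its lowest value, their summed level had the wider range across libraries, although the span in CPM was wider for the rising regions. It was 55.5 CPM in the DGRP_25208 library with IR, 108 CPM at the median and 387 CPM in DGRP_29651. The rising regions summed to 374 CPM in their lowest library, 618 CPM at the median and 804 CPM in their highest. The falling regions made up 4.15% of the locus in DGRP_28206 and 31.5% in DGRP_29651, with a median of 8.67%. Whether falling regions are also the weaker ones over the whole table was not tested.

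The falling regions moved as 1 group: over 78 pairs the mean Pearson r across the 31 libraries was 0.75, with a range of 0.42 to 0.92. The regions were grouped by their slope on the score, which builds in a shared direction. With the score and IR removed, the mean r was 0.18. The rising regions had a mean r of 0.40 over 105 pairs, and 0.10 after the removal. Between falling and rising regions the mean r was -0.46 over 195 pairs, and 0.09 after it. Neighbouring regions were more alike where they lay close. Neighbours within 1 kb (18 pairs) had a mean r of 0.33, and of 0.40 after the removal, and neighbours further apart (30 pairs) had 0.10 and 0.02. All of these correlations share libraries and depth and are given as a description.

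By edgeR no region passed the test between lines as fitted without the score. With all line coefficients tested together, 0 of the 49 regions passed edgeR's adjusted p of 0.05, where 0.0942% of all regions did, and 2 had an unadjusted p under 0.05 (4.08% of the regions, against 7.68% of all). With DESeq2's likelihood ratio test 1 region passed, where 5.51% of all regions did. The test rests on the 8 lines with 2 libraries for its spread. With the score as a covariate 3 regions passed by edgeR, where 10.4% of all regions did. These were region 3 (2L:12564439-12564855, adjusted p 3.68e-04), region 8 (2L:12577811-12578954, adjusted p 0.0231) and region 22 (2L:12623161-12623518, adjusted p 0.0462). Without the score their edgeR adjusted p was 0.165 or above.

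Region 3 had the largest SD of line means among the stronger regions (0.95, log2) and was the region DESeq2 called (adjusted p 9.98e-08). The single library of DGRP_28222, which carries IR, had 0.989 CPM there, from 7 reads. The other 30 libraries had 5.95 to 31.9 CPM with a median of 16.8 CPM, and none overlapped with DGRP_28222. Against the mean of the other lines DGRP_28222 was lower by a log2 change of -4.04 ± 0.57 (SE, edgeR adjusted p 0.0371), where 0.0552% of all regions were called for this line. It was the only call among 1127 pairs of a region and a line, a share of 0.0887%, against 0.139% over all regions and lines.

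The call at region 3 has limits. It rests on 1 library, whose spread is assumed to be that of lines with 2. With 1 library left out in turn, the adjusted p lay between 0.0188 and 0.0974: it passed without either library of DGRP_28260 and failed without any 1 library of DGRP_25208, DGRP_28123, DGRP_28262, DGRP_28265, DGRP_28275, DGRP_29652 or DGRP_55031. With no term for IR it was 0.0519, and with the score as a covariate 8.37e-05, where 0.481% of all regions were called for this line. The log2 change stayed between -4.13 and -3.88 in these fits. The SD of line means and the DESeq2 call at region 3 include the library of DGRP_28222 too, and neither was taken without it.

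The regions beside region 3 were lower in DGRP_28222 to a smaller degree or not at all. Region 2 (2L:12563617-12563832), a weak neighbour, also had 7 reads in DGRP_28222, or 0.989 CPM, against a median of 3.72 CPM over the 31 libraries. Region 1 (2L:12562685-12563031) had 3.95 CPM there against a median of 6.65 CPM, and region 4 (2L:12566653-12567068) had 5.23 CPM against 4.78 CPM. Whether the DNA of DGRP_28222 differs there was not tested.

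**Figure D4:**
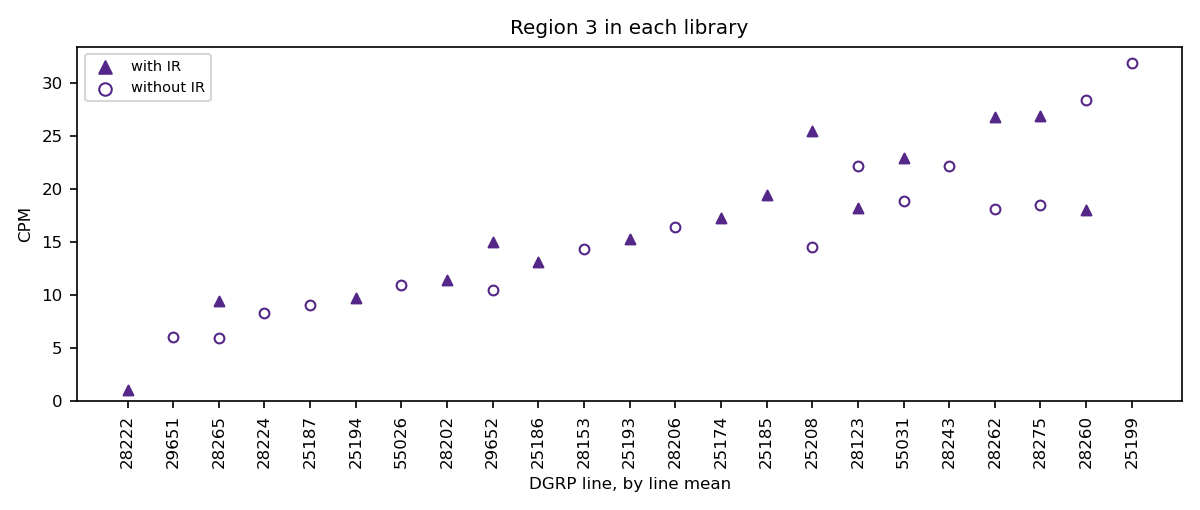
Level of region 3 (CPM, vertical axis from 0) in every library, by DGRP line in order of the line mean, with triangles for libraries with IR and circles for those without. DGRP_28222, at the left, lies at 0.989 CPM, and all other libraries lie between 5.95 and 31.9 CPM.

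With the score as a covariate, 15 of the 1127 pairs of a region and a line passed by edgeR (1.33%, against 1.14% over all regions and lines). DGRP_28123 accounted for 5 of them, all higher in that fit, where 3.11% of all regions were called for that line. None of the 5 was called in the fit without the score term. At region 25 (2L:12630997-12631303) it had 13.01 CPM with IR and 11.4 CPM without, against a median of 5.44 CPM in the other 29 libraries, 1 of which lay at or above the lower value. The log2 change was 0.97 (edgeR adjusted p 0.0369). At regions 22, 39 (2L:12661515-12661846), 43 (2L:12678129-12678719) and 46, all falling with the score, other libraries reached or passed the level of DGRP_28123. At region 39 its library without IR had 4.36 CPM, below the median of 5.65 CPM in the other 29 libraries.

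A pair of lines with 1 library stood highest at a region. At region 33 (2L:12649083-12649404) DGRP_25185 had 13.02 CPM, against 1.90 to 11.002 CPM in the other 30 libraries. Its log2 change with the score as a covariate was 1.39 (edgeR adjusted p 0.0196), 1 of 3 regions called for this line, where 4.79% of all regions were. At region 30 (2L:12640291-12640659) DGRP_28243 had 19.4 CPM, against 2.57 to 10.4 CPM in the others, and its log2 change in that fit was 1.74 (edgeR adjusted p 0.0191). Neither passed without the score term. Region 32 (2L:12646431-12647076), 1 of the 5 stronger regions with the largest SD of line means, ran from 6.26 CPM in DGRP_25174 through a median of 15.2 CPM to 31.6 CPM in DGRP_28243, with no call for any line.

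No region of the locus passed the test for the IR label. In the 8 lines with both kinds of library, 0 of 49 regions passed edgeR's adjusted p of 0.05, where 0.0293% of all regions were higher and 0.0% lower with IR. DESeq2's Wald test also passed 0. An unadjusted p under 0.05 was found for 3 regions by edgeR (6.12%, against 17.8% of all regions). Log2 changes, with IR over without, ran from -0.91 to 0.47, with a median of 0.05 over the 49 regions and of -0.01 over all regions.

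Region 49 (2L:12694729-12695184), at the far end of the locus, had the smallest p. It had 21.4 to 39.5 CPM with IR, against 18.9 to 25.7 CPM without, and it was higher with IR in 8 of 8 lines. The groups overlapped. Its log2 change was 0.47 ± 0.14 (SE, edgeR unadjusted p 0.00561, adjusted p 0.137). Region 36 was higher with IR in 7 of 8 lines, with a log2 change of 0.39 ± 0.12 (edgeR adjusted p 0.149). Region 48 (2L:12692451-12693213) was higher in 7 of 8, with 0.29 ± 0.12 (edgeR adjusted p 0.261). Regions 49 and 36 also rose with the score (edgeR adjusted p 0.0365 and 0.0239), which was not balanced over IR in these lines. With the score as a covariate 0 of 49 regions passed for IR by edgeR.

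The level of the locus as a whole was steady. The summed CPM of the 49 regions was 898 in the lowest library (DGRP_28265 without IR), 1196 at the median and 1478 in the highest (DGRP_28262 without IR), a 1.65-fold range. Line means in ascending order were 1030.1 CPM in DGRP_28265, 1037 in DGRP_25193, 1097 in DGRP_25174, 1109.8 in DGRP_25194, 1115 in DGRP_25186, 1121 in DGRP_28153, 1159 in DGRP_28275 and 1161 in DGRP_28260. The middle of the order held DGRP_25185 at 1168 CPM, DGRP_25199 at 1180.3, DGRP_25187 at 1196, DGRP_55026 at 1201, DGRP_28202 at 1212, DGRP_29652 at 1213, DGRP_25208 at 1229.6 and DGRP_28222 at 1229.8. Above these came DGRP_29651 at 1231 CPM, DGRP_28224 at 1276, DGRP_55031 at 1299.5, DGRP_28262 at 1307, DGRP_28243 at 1357, DGRP_28123 at 1382 and DGRP_28206 at 1406. The line means had an SD of 0.12 (log2) and spanned 0.46, and the within-line SD was 0.15. Neighbours in this order lay at most 0.081 apart, less than the within-line SD, as is usual for 23 sorted values.

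The libraries of 1 line were not shown to be closer in level than libraries of different lines. Each as a deviation from the mean of its IR group, the 2 libraries of a line differed on average by 0.151 (log2), against 0.180 over all pairings (exact one-sided permutation test over 40320 pairings, p = 0.202). In DGRP_28265 the locus had 1162 CPM with IR and 898 CPM without, and in DGRP_28262 it had 1135 CPM with IR and 1478 CPM without. In DGRP_28123 the levels were 1391 and 1374 CPM, and in DGRP_28260 they were 1153 and 1169 CPM, with and without IR. The mean log2 difference, with IR minus without, was 0.022 ± 0.22 (SD, n = 8 lines, 5 higher with IR, exact two-sided sign-flip permutation test p = 0.789), and its sign turned to -0.0082 with library totals.

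**Figure D5:**
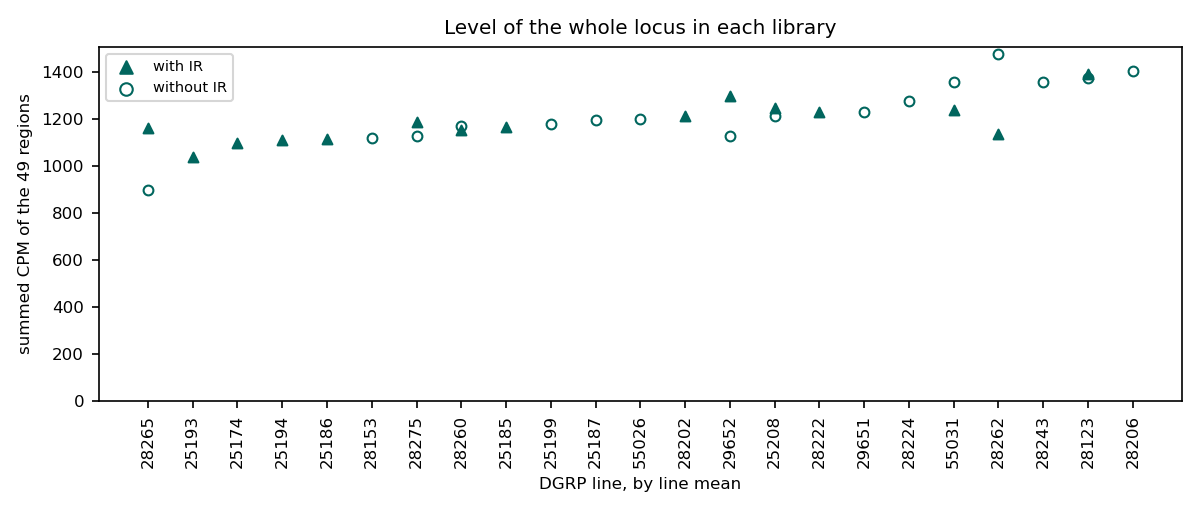
Summed CPM of the 49 regions (vertical axis from 0) in every library, by DGRP line in order of the line mean, with triangles for libraries with IR and circles for those without. Line means run from 1030.1 to 1406 CPM and single libraries from 898 to 1478 CPM, and the 2 libraries of DGRP_28265 and of DGRP_28262 lie further apart than those of any other line.

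The relation of the locus level to the score depended on the libraries and the scaling used. Over 1 library of each of the 23 lines Pearson's r was 0.35 (permutation p = 0.101) and Spearman's rho was 0.37 (permutation p = 0.0828). Without DGRP_29651 and the DGRP_55031 library without IR, the farthest from the median score, r was 0.60 (permutation p = 0.00327), so the value depends on those 2 libraries. The sign turned with library totals, where r was -0.063, and for the mean of the members' log2 CPM, where r was -0.30. Within the 16 libraries without IR r was 0.46 (permutation p = 0.0692), and within the 15 with IR it was 0.32 (permutation p = 0.248). Over all 31 libraries r was 0.36 (permutation p = 0.0507) and rho was 0.42 (permutation p = 0.0203), but 8 lines enter there with 2 libraries each. With replicate 2 in place of replicate 1 in those lines, r was 0.31 (permutation p = 0.154) and rho was 0.42 (permutation p = 0.0468).

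The regions outside the locus, over 100 kb away and above the median level, whose log2 CPM was most like the locus level over the 31 libraries lay on several arms. The closest were 2L:11445446-11446478 with an r of 0.74, 3L:2417181-2417577 with 0.73, 2L:1062286-1063519 with 0.72, 3R:16590944-16592018 with 0.72 and 2R:4214296-4215277 with 0.72. With the score and IR removed the closest were 2R:2871190-2873792 with 0.74 and 3L:10509363-10510215 with 0.73, followed by 2L:7827571-7829432, 3L:14592554-14593099 and 2R:17210444-17212163 with 0.71 each. These are the highest of 15339 values, which share libraries and depth, and no region was the same in both lists.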

How the data were processed

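The authors deposited 1 table of raw read counts per region, with 1 column for each of the 31 libraries, over 1 merged set of regions. Per the submitters' processing notes, Bowtie2, MACS2, featureCounts and DESeq2 were used with the genome build dm3. Their versions, parameters and the treatment of duplicate reads and of the Tn5 offset are not given in the sources used here.

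All fits ran over the whole table in edgeR 4.0.16 (R 4.3.3), and only the regions of the locus are printed. The filter on low values asked 2 or more libraries to reach the CPM that equals 10 counts in a library of median size, which left 30773 regions over 31 libraries and 30711 over the 16 libraries of the 8 lines with 2. Counts were scaled by TMM and tested with edgeR's robust quasi-likelihood F-test. The p-values were adjusted by Benjamini-Hochberg over all regions, and the threshold was 0.05. Lines were tested together, and each against the mean of the other 22, with a term for IR. IR was tested within lines. The slope on the component score had terms for line and IR and is given as the log2 change between the lowest and the highest score. Log2 CPM values used for the component and correlations carry a prior count of 2. The code was tested on simulated counts.

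Replicate 1 of a line with 2 libraries is the one without IR, and the shared line name pairs the 2. Alternatives were library totals, DESeq2 1.42.0 size factors and tests, other filters, other covariates and leaving out libraries or lines. Precision is set by counting at the shallowest library and by the 7 residual degrees of freedom of the line test.

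Regions were named by rule: the 5 highest per kb, the 5 with the smallest p between lines, the 5 most variable between line means (SD) above the median level, the 3 with the smallest p for IR, the 3 steepest in each direction on the score, and those called in 1 line. Other regions were named after their values were seen. A list of other wing and limb genes was not read, since no dm3 annotation was used. The members, lists and tests were chosen with earlier results of these data known.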

Additional observations from a re-analysis of the deposited data

Results flagged for a closer look

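In 44 sets of 8 libraries (the level of the locus and each region named by rule, with and without IR in the lines with both), 2 held a library that lay apart from the others by Dixon's criterion at 95%. Chance flags about 1 in 20 such sets.

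Region 2 (2L:12563617-12563832) had 0.68 log2 CPM in the DGRP_28265 library with IR, against 1.82 in the next lowest and a median of 2.46 in the 8 libraries with IR. The region is weak, and its median level over the 31 libraries was 3.72 CPM. Region 14 (2L:12600887-12601092) had 1.02 log2 CPM in the DGRP_25208 library without IR, against 2.71 in the next lowest and a median of 3.32 in the 8 libraries without IR. That library is the shallowest, with 1110755 counts, and the part of depth in the value was not tested.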

How the results depend on the processing

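Over the alternatives tried, most results kept their direction and their side of the threshold. Between lines, 0 of 49 regions were called with TMM, and 1 with DESeq2's likelihood ratio test and 3 with the score as a covariate. For 1 line against the others, 1 region was called, against 15 with the score as a covariate and 0 with no replicate block (no term for IR), and 0 to 1 with 1 library left out. For IR the count was 0 in every fit, also with no replicate block. With the score, 13 regions fell and 15 rose. With a mean count of 50 or more 6 fell, because fewer regions were tested. With library totals 8 rose, and with no replicate block (no term for the line) 26 rose. With 1 library left out, 24 to 29 were called, 11 to 14 falling and 11 to 16 rising. Each of these fits takes both libraries of that line out of the slope, since the library left over has no partner. Among 21 fits without the filter at 50 counts, 11 of the 13 falling and 7 of the 15 rising regions were called in each.

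For the level of the locus, the mean within-line difference less that of all pairings was -0.028, but 0.0061 with library totals, and -0.045 to 0.0027 with 1 line left out. The difference with IR was 0.022, but -0.0082 with library totals, -0.048 for the mean of the members' log2 CPM, -0.022 with the score removed and -0.028 to 0.079 with 1 line left out. The pairing came from the line name, and without it the p for IR was 0.817. The correlation with the score was 0.35, but -0.063 with library totals, -0.30 for the mean of the members' log2 CPM and 0.60 without the 2 libraries farthest from the median score. The cause of these changes was not tested. Slopes were followed for the regions named for the steepest falls and rises, and IR changes for those named for IR. None of these reversed in the fits. For the other regions named by rule, a reversal of the slope or the IR change was not tested. Depth limits the 17 regions with a mean count under 50, and 15 lines have no second library.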
